A study of Mus musculus with 12 samples.

Results

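The genes described here are 32 genes of protein folding and stress signalling in the endoplasmic reticulum (ER), read in whole brains of 12 mice. They were taken by symbol, matched through the Ensembl gene identifiers of the deposited tables, and they are 32 of the 38924 genes listed. All 32 passed the filter on low counts, so none is missing from the tests below, which ran over 16493 genes. They comprise 9 genes of the BiP chaperone system and its small secreted partners, 2 lectin chaperones, 4 disulfide isomerases, 7 genes of ER-associated degradation, 1 translocon subunit, 3 stress sensors, 3 transcription factors and 3 targets of the PERK-ATF4 branch. The mice were 6 weeks old, with 3 per genotype: wild type (WT) and homozygotes for 1 of the Rorb alleles h1, h2 and h4. Rorb encodes a nuclear receptor and is the gene of the high stepper mutants. By their labels, WT and h1 mice were C57BL/6J, the h2 strain was B6(Cg)-Tyrc-2J/J, and that of h4 was B6.129S7-Il1r1tm1Imx/J. The h2 strain name carries a Tyr allele and the h4 strain name a targeted Il1r1 allele, so for h2 and h4 the Rorb allele and the background cannot be told apart. The question put to the data is how each mutant brain compared with WT, and with the other mutants, in these genes.

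Secreted and membrane proteins fold inside the ER, where the chaperone BiP (Hspa5) binds unfolded chains, lectin chaperones hold glycoproteins, and disulfide isomerases pair cysteines. Chains that fail are returned to the cytosol and degraded. When unfolded protein accumulates, the membrane sensors IRE1 (Ern1), PERK (Eif2ak3) and ATF6 start the unfolded protein response: ATF6 and spliced XBP1 raise chaperone and degradation genes, and PERK phosphorylates eIF2 alpha, which lowers translation and raises ATF4. ATF4 also receives signals from other eIF2 alpha kinases, such as the one that reads amino acid shortage, and drives genes of amino acid supply and of apoptosis. Xbp1 splicing, ATF6 cleavage and phosphorylation do not show in gene-level counts and were not analysed here.

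Libraries held 14513800 to 24694200 expected counts, and the shallowest was h2 replicate 1. Rorb itself measured 18.5, 16.3 and 17.0 CPM (counts scaled to library size) in WT. In h1 it was 23.3, 33.4 and 22.8, in h2 31.1, 31.1 and 22.5, and in h4 9.06, 8.63 and 8.55, so each h4 library lay below each WT library. Markers of neurons, oligodendrocytes, astrocytes and microglia were present in each library, as the brain label implies, and the pituitary hormone genes Prl, Gh, Cga and Tshb were at 0 in at least 1 library and at most 1.14 CPM in any. Xist, the RNA of the inactive X chromosome, was high in 7 libraries (786 to 911 CPM) and near 0 in 5 (0.562 to 1.36 CPM), and the labels give no sex. The 7 libraries with high Xist were the 3 of WT, 1 of h1 (replicate 1), 1 of h2 (replicate 2) and 2 of h4 (replicates 1 and 3). Among the WT mice, replicates 1 and 2 held the highest value of 10 and 9 of the 32 ER genes, respectively, and replicate 3 of none. In whole tissue, fewer cells of a type and less RNA per cell cannot be told apart.

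Levels between genes were compared in the deposited TPM, which are scaled by transcript length. Averaged over the 12 libraries, the lectin chaperone Calr (calreticulin) was the most abundant of the 32 genes at 379.7 TPM, followed by Hsp90b1 (GRP94) at 315, Canx (calnexin) at 305 and Hspa5 (BiP) at 258. In WT these 4 stood at 408 ± 18.1, 333 ± 6.81, 316 ± 8.17 and 299 ± 32.1 TPM (SD, n = 3), and the values of Canx and Hspa5 differed by less than the SD of Hspa5. In h2 the level of Hspa5 was 207 ± 10.5 TPM, below Canx at 295 ± 4.93. The isomerase Pdia3, which works with the lectin chaperones on glycoproteins, averaged 159 TPM, and the other isomerases Pdia6, P4hb and Pdia4 averaged 91.4, 87.8 and 42.9 TPM. Of the smaller chaperone partners, Manf averaged 94.7 TPM, Dnajb9 55.7, Dnajb11 54.0, Hyou1 49.9, Dnajc3 34.9, Creld2 16.1 and Sdf2l1 14.5 TPM.

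The degradation genes ran from 75.4 TPM for Sel1l, the scaffold of the ER ubiquitin ligase, to 1.38 TPM for Derl3. Between them lay Herpud1 at 65.5, Derl1 at 48.7, Syvn1 at 24.8, Derl2 at 20.02 and Edem1 at 9.45 TPM, and the translocon subunit Sec61b averaged 50.03 TPM. The sensors were low, with Atf6 at 25.1 TPM, Eif2ak3 at 15.0 and Ern1 at 4.62. Their transcription factors were higher, with Atf4 at 116 TPM, Xbp1 at 84.3 and Ddit3 (CHOP) at 47.1. Of the PERK-ATF4 targets, Asns averaged 92.5 TPM, Chac1 6.13 and Trib3 0.682. Trib3 and Derl3 rest on few reads, as few as 5 and 11 expected counts in a library, so that differences of these 2 genes were not detectable at this depth unless very large.

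**Figure D1:**
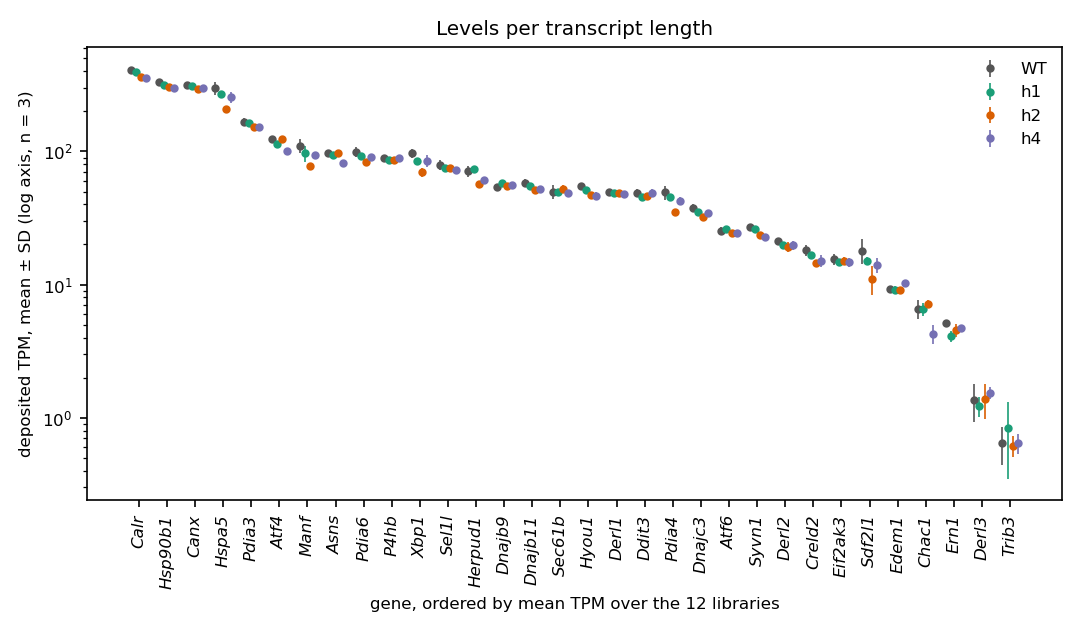
Deposited TPM of the 32 genes (vertical log axis) by genotype, as mean and SD of 3 libraries, with genes ordered along the horizontal axis by their mean over the 12 libraries. Levels run from 379.7 TPM for Calr to 0.682 TPM for Trib3, and the Hspa5, Xbp1 and Pdia4 points of h2 sit below those of the other 3 genotypes.

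Against WT, the ER genes were called lower in h2 and in h4 and in no case higher, with a call at a Benjamini-Hochberg adjusted p under 0.05 over the 16493 genes in edgeR's quasi-likelihood test. In h2, 10 of the 32 were lower, where 0.340% of all genes were called lower and 0.340% higher. In h4, 7 of the 32 were lower, where 2.91% of all genes were called lower and 1.64% higher. In h1 none of the 32 was called, by edgeR or by DESeq2, where 0.206% of all genes were called lower and 0.418% higher. At an unadjusted p under 0.05 the h1 comparison held 3 of the 32 genes, 2 lower and 1 higher, near the 9.82% of all genes. That share of all genes was 11.5% in h2 and 17.6% in h4 against WT. It was 9.49% for h2 against h1, 19.1% for h4 against h1 and 16.8% for h4 against h2. These are the shares to set beside the unadjusted counts given below. The median log2 fold change of the 32 genes was -0.04 in h1, -0.13 in h2 and -0.13 in h4, beside 0.000, 0.003 and 0.009 over all genes tested. The 3 comparisons share the WT libraries, so they are not independent of each other.

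The h2 libraries lay wholly below the WT libraries for 16 of the 32 genes, where this held for 7.89% of all genes. For h4 it was 8 of the 32 against 10.4% of all genes, and for h1 it was 4 of the 32 against 7.12%. Summed over the 32 genes, CPM were 3494, 3434 and 3269 (WT), 3298, 3326 and 3282 (h1), 3109, 3023 and 3042 (h2) and 3105, 3218 and 3069 (h4). The sums of h2 and h4 lay below each WT sum, while those of h1 overlapped WT. WT replicate 3 had the lowest sum of its group, and h4 replicate 2 had the highest of its own.

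**Figure D2:**
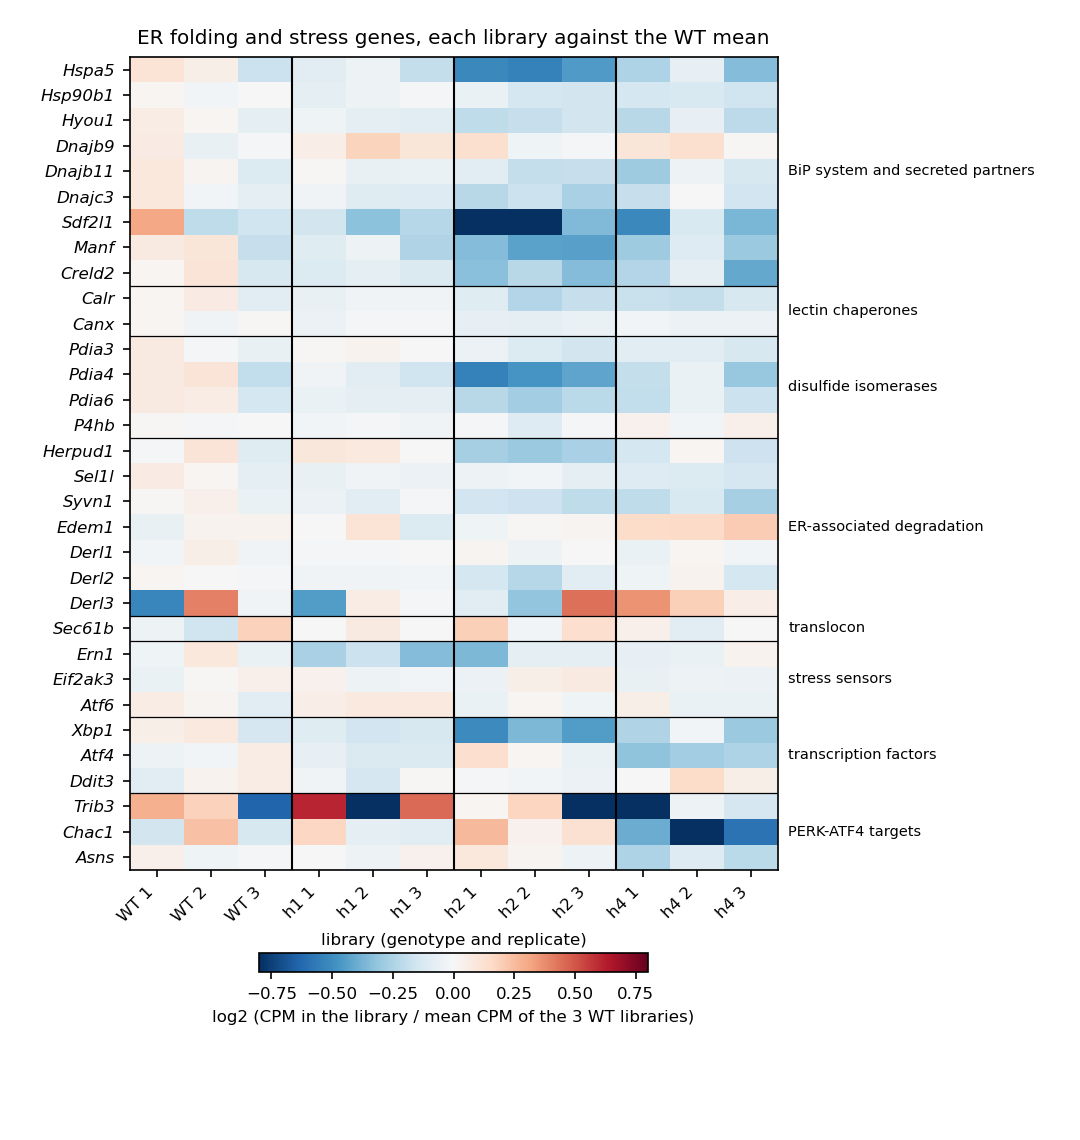
Each of the 32 genes (rows, grouped by role) in each of the 12 libraries (columns) as the log2 ratio of its CPM to the mean CPM of the 3 WT libraries, on a colour scale that saturates beyond 0.8 in either direction. Blue cells, lower than the WT mean, gather in the h2 columns for Hspa5, Sdf2l1, Manf, Pdia4 and Xbp1 and in the h4 columns for Atf4, Chac1 and Asns, and the coarse steps of Derl3 and Trib3 come from a few reads.

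Of the 9 genes of the BiP system, 5 were called lower in h2 and 2 in h4 against WT, and none between h2 and h1 by edgeR, where DESeq2 called 2 and 6 had an unadjusted p under 0.05. Hspa5 measured 392, 376 and 323 CPM (WT), 342, 353 and 318 (h1), 254, 250.1 and 265 (h2) and 306, 348 and 286 (h4). Each h2 library was below each library of the other 3 genotypes, and the h4 libraries overlapped WT. Hspa5, the BiP chaperone itself, fell by 29.4% in h2, a log2 fold change of -0.50 (adjusted p = 0.0331, SE 0.08). In h4 its log2 fold change was -0.21 (adjusted p = 0.217, SE 0.08) and in h1 -0.11 (adjusted p = 0.762, SE 0.08). Sdf2l1 measured 10.5, 7.39 and 7.63 CPM (WT), 7.70, 6.79 and 7.27 (h1), 4.42, 4.75 and 6.66 (h2) and 5.95, 7.82 and 6.60 (h4). Sdf2l1 assists BiP in the ER lumen, and its h2 values were all below the lowest WT value, with a wide spread at this low level. It fell by 37.1% in h2, a log2 fold change of -0.67 (adjusted p = 0.0495, SE 0.15). Manf measured 43.1, 43.7 and 36.0 CPM (WT), 38.2, 39.9 and 34.7 (h1), 32.2, 30.5 and 30.3 (h2) and 33.6, 38.1 and 33.3 (h4). Manf is a small secreted protein that binds BiP, and its h2 libraries again lay below all others. It fell in h2 by 24.5% (log2 fold change -0.41 (adjusted p = 0.00652, SE 0.07)), while h4 gave -0.23 (adjusted p = 0.0744, SE 0.07). The exons of Manf overlap those of Rbm15b on the same strand and Dcaf1 on the other, so its counts are uncertain.

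Dnajc3 measured 105, 98.0 and 94.6 CPM (WT), 97.4, 93.0 and 92.7 (h1), 85.1, 88.2 and 83.1 (h2) and 87.5, 99.3 and 89.4 (h4). Dnajc3 (p58IPK) is a BiP co-chaperone, and its h2 libraries lay below those of WT and h1, with h4 replicate 1 among them. Its log2 fold change in h2 was -0.22 (adjusted p = 0.0246, SE 0.05). Hyou1 measured 119, 116 and 109 CPM (WT), 112, 109 and 108 (h1), 99.8, 101 and 103 (h2) and 98.2, 109 and 99.1 (h4). Hyou1 exchanges the nucleotide of BiP, and in h4 it was low in replicates 1 and 3 but not in replicate 2, which overlapped WT. Hyou1 fell in h2 by 11.6%, at -0.18 (adjusted p = 0.0452, SE 0.04), and in h4 by 10.9%, at -0.17 (adjusted p = 0.0237, SE 0.04). Hsp90b1 measured 458, 446 and 453 CPM (WT), 428, 439 and 448 (h1), 435, 411 and 409 (h2) and 411, 415 and 406 (h4). Hsp90b1 is the HSP90 of the ER, and both the h2 and the h4 libraries lay below the 3 of WT. It fell in h4, by 9.27% and a log2 fold change of -0.14 (adjusted p = 0.0204, SE 0.04), while the h2 value of -0.11 (adjusted p = 0.15, SE 0.04) did not pass. Creld2, a secreted isomerase-like partner, gave -0.30 (adjusted p = 0.169, SE 0.10) in h2, and the co-chaperone Dnajb11 gave -0.16 (adjusted p = 0.26, SE 0.06). Dnajb9 (ERdj4), a BiP co-chaperone that is a classical XBP1 target, was not called, with log2 fold changes of 0.11 in h1, 0.02 in h2 and 0.08 in h4.

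Of the 2 lectin chaperones, Calr was called lower in h2 and in h4, and Canx in neither. Calr measured 334, 344 and 312 CPM (WT), 317, 324 and 324 (h1), 309, 281 and 290.3 (h2) and 291, 289 and 302 (h4). The 6 libraries of h2 and h4 all lay below the lowest WT library. Calr fell by 11.2% in h2 (log2 fold change -0.17 (adjusted p = 0.0488, SE 0.04)) and by 10.8% in h4 (log2 fold change -0.17 (adjusted p = 0.02, SE 0.04)). For Canx, its membrane-bound relative, the values were -0.07 in h2 and -0.04 in h4, with adjusted p of 0.454 and 0.614. Of the 4 disulfide isomerases, 2 were lower in h2 and none in h4 by edgeR or DESeq2, where 3 had an unadjusted p under 0.05. Pdia4 measured 61.9, 63.2 and 51.2 CPM (WT), 57.7, 55.5 and 52.5 (h1), 40.4, 42.3 and 43.9 (h2) and 51.5, 56.5 and 47.7 (h4). Each h2 library lay below each library of the other 3 genotypes. Pdia4 (ERp72) fell by 28.0% in h2, the smallest adjusted p of the 32 genes in that comparison, at -0.47 (adjusted p = 0.00642, SE 0.07). Pdia6 measured 102, 100.5 and 87.8 CPM (WT), 93.3, 91.8 and 91.5 (h1), 83.0, 79.7 and 83.2 (h2) and 84.3, 93.3 and 85.7 (h4). Pdia6 (P5) binds BiP and was lowest in h2, again without overlap with WT. Its log2 fold change was -0.24 (adjusted p = 0.0174, SE 0.05) in h2 and -0.14 (adjusted p = 0.106, SE 0.05) in h4. Pdia3 measured 233, 220.2 and 212 CPM (WT), 224, 226 and 222 (h1), 215, 206 and 200.4 (h2) and 209.6, 209 and 203 (h4). The h4 libraries lay below WT and h2 replicate 1 overlapped it, and log2 fold changes of -0.10 in h2 and -0.10 in h4 had adjusted p of 0.277 and 0.149. On the other strand, exons of Pdia6 overlap those of Atp6v1c2 and exons of Pdia3 those of Catsper2. The counts of both isomerases may therefore include reads of these neighbours, though RSEM gave both whole counts in each library. P4hb, the founding disulfide isomerase, was at 125 ± 1.07 CPM (WT), 123 ± 0.616 (h1), 122 ± 4.60 (h2) and 127 ± 2.98 (h4), as mean and SD of n = 3, with no call.

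In ER-associated degradation, 1 of 7 genes was lower in h2 and 1 in h4. Herpud1 measured 54.6, 59.1 and 51.4 CPM (WT), 58.7, 58.0 and 55.2 (h1), 45.9, 44.8 and 46.0 (h2) and 49.9, 55.5 and 49.1 (h4). Herpud1 recruits the ubiquitin ligase complex, and its h2 libraries were below all others, while those of h1 and h4 overlapped WT. It fell in h2 by 17.3%, a log2 fold change of -0.27 (adjusted p = 0.0135, SE 0.05). Syvn1 measured 44.7, 45.7 and 42.8 CPM (WT), 42.9, 41.9 and 43.9 (h1), 39.9, 39.6 and 38.6 (h2) and 38.5, 40.7 and 37.0 (h4). Syvn1 (HRD1) is that ligase, and each h2 and h4 library lay below each WT library. Syvn1 fell by 12.8% in h4, a log2 fold change of -0.20 (adjusted p = 0.027, SE 0.05), and the h2 value of -0.18 (adjusted p = 0.125, SE 0.05) did not pass. Syvn1 lies on chromosome 19, as Rorb does, 12.9 Mb away. Its exons overlap those of Mrpl49 on the other strand, whose reads an unstranded library does not separate, though RSEM gave Syvn1 whole counts in each library. Sel1l measured 242, 233 and 219 CPM (WT), 222, 226 and 224 (h1), 225, 228 and 219.8 (h2) and 216, 214 and 211 (h4). The h4 libraries were the lowest, at a log2 fold change of -0.11 (adjusted p = 0.074), and h2 overlapped WT. Edem1, which marks misfolded glycoproteins for degradation, was higher in each h4 library than in each WT library, at 0.17 (adjusted p = 0.125, SE 0.06), and did not pass. The derlins, channel proteins of the same pathway, gave log2 fold changes of -0.01 (Derl1), -0.15 (Derl2) and 0.06 (Derl3) in h2, and -0.02, -0.05 and 0.21 in h4, with no call. The exons of Derl2 overlap those of Mis12 on the other strand. Sec61b measured 9.03, 8.32 and 10.6 CPM (WT), 9.33, 9.79 and 9.28 (h1), 10.6, 9.14 and 10.2 (h2) and 9.55, 8.74 and 9.34 (h4). This translocon subunit overlapped between all genotypes, with adjusted p of 0.781 in h2 and 0.973 in h4.

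None of the 3 stress sensors was called against WT in any mutant, by edgeR or DESeq2, and 1 of them, Ern1 in h1, had an unadjusted p under 0.05. Ern1 measured 15.96, 17.3 and 15.8 CPM (WT), 13.7, 14.5 and 12.8 (h1), 12.8, 15.5 and 15.5 (h2) and 15.6, 15.8 and 16.7 (h4). Ern1 was lower in the 3 h1 libraries than in the 3 of WT, at a log2 fold change of -0.26 (adjusted p = 0.197, SE 0.08), the largest difference of the 32 genes in h1, and it did not pass. Eif2ak3 measured 32.1, 33.6 and 34.2 CPM (WT), 34.0, 32.4 and 32.8 (h1), 32.2, 34.3 and 35.0 (h2) and 32, 32.4 and 32.2 (h4). Eif2ak3 overlapped WT in each mutant, with log2 fold changes from -0.05 in h4 to 0.03 in h2. Atf6 measured 97.9, 95.2 and 88.2 CPM (WT), 97.2, 99.1 and 99.1 (h1), 90.3, 94.6 and 91.5 (h2) and 97.0, 90.3 and 90.4 (h4). Atf6 also overlapped WT in each mutant, with log2 fold changes of 0.07 in h1, -0.02 in h2 and -0.02 in h4. At the 3 sensors SE were 0.04 to 0.08 on the log2 scale.

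Of the 3 transcription factors below the sensors, Xbp1 was called lower in h2 against WT, Atf4 in h4, and Ddit3 in neither. Xbp1 measured 92.4, 94.4 and 81.6 CPM (WT), 83.7, 80.3 and 81.8 (h1), 62.9, 69.6 and 65.5 (h2) and 75.6, 88.2 and 72.7 (h4). All 3 h2 libraries lay below the 9 others, and h4 overlapped WT. Xbp1 fell in h2, at a log2 fold change of -0.43 (adjusted p = 0.00847, SE 0.07), and gave -0.18 (adjusted p = 0.157, SE 0.07) in h4. Xbp1 was also called lower in h4 without WT replicate 3 (adjusted p = 0.0143) and without h4 replicate 2 (adjusted p = 0.00455). These were the lowest WT and the highest h4 library for Xbp1, so leaving out either had to widen the difference. Within the libraries of high Xist, which also lack h4 replicate 2, the log2 fold change of Xbp1 was -0.28. With both of these libraries in, Xbp1 was not called in h4 by edgeR or DESeq2. Atf4 measured 96.1, 97.6 and 103 CPM (WT), 94.4, 91.3 and 91.3 (h1), 109, 99.9 and 95.4 (h2) and 79.2, 81.6 and 83.3 (h4). Here the order differed: h4 was below the other 3 genotypes without overlap, and h2 replicate 1 was the highest library. Each h1 library also lay below each WT library, without a call. Atf4 fell by 17.7% in h4, at -0.28 (adjusted p = 0.000314, SE 0.04), and its value in h2 was 0.03 (adjusted p = 0.857, SE 0.04). Ddit3 measured 15.7, 17.1 and 17.4 CPM (WT), 16.4, 15.3 and 16.8 (h1), 16.6, 16.5 and 16.2 (h2) and 16.7, 18.5 and 17.3 (h4). Ddit3 encodes CHOP, the pro-apoptotic factor downstream of ATF4, and had log2 fold changes of -0.03 in h2 and 0.06 in h4, with adjusted p of 0.927 and 0.72. The exons of Ddit3 overlap those of Mars on the other strand, so its counts may include reads of Mars, though RSEM gave Ddit3 whole counts in each library.

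Of the 3 PERK-ATF4 targets, 2 were called lower in h4, and none in h2 by edgeR or DESeq2 or at an unadjusted p under 0.05. Chac1 measured 4.49, 5.86 and 4.56 CPM (WT), 5.58, 4.73 and 4.66 (h1), 5.93, 5.08 and 5.40 (h2) and 3.77, 2.71 and 3.30 (h4). Chac1 degrades glutathione, and its h4 libraries lay below all 9 others. It fell by 34.4% in h4, a log2 fold change of -0.61 (adjusted p = 0.0169, SE 0.15), on at least 50 expected counts per library. Asns measured 90.8, 86.6 and 88.1 CPM (WT), 88.5, 86.0 and 90.8 (h1), 94.0, 89.95 and 86.1 (h2) and 74.8, 82.5 and 76.2 (h4). Asns makes asparagine, and again the 3 h4 libraries were the lowest of the 12. It fell by 12.1% in h4, at -0.19 (adjusted p = 0.0139, SE 0.04). In h2 the log2 fold changes were 0.13 for Chac1 and 0.02 for Asns. Trib3, a pseudokinase that restrains ATF4, measured 0.614 ± 0.191 CPM in WT and 0.476 ± 0.177 in h4 (SD, n = 3), at -0.37 (adjusted p = 0.727, SE 0.44).

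**Figure D3:**
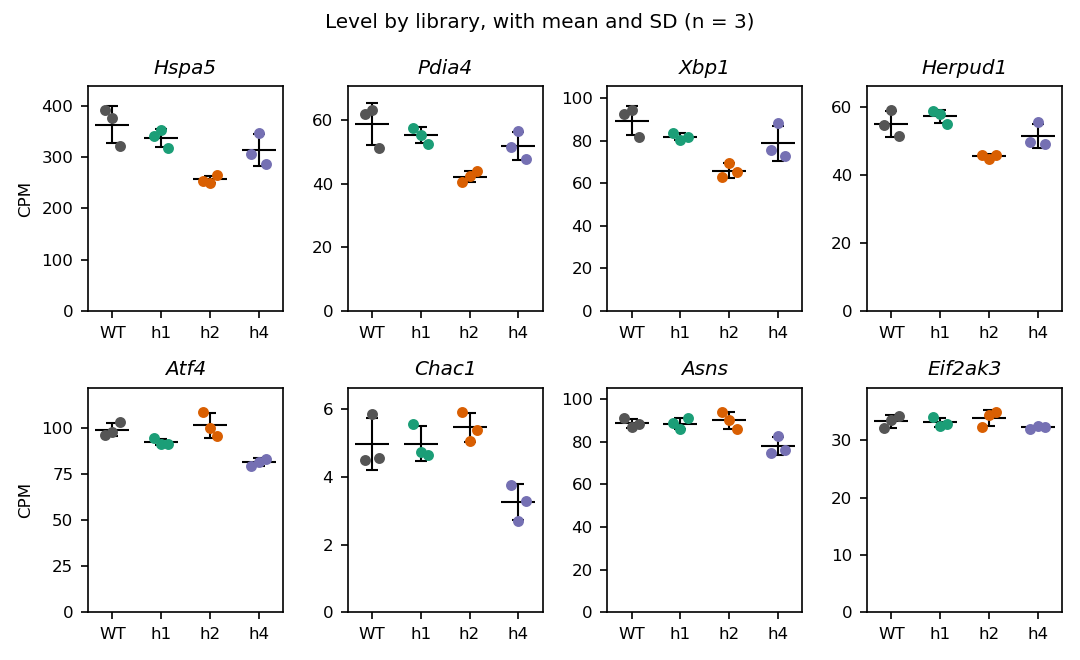
CPM (vertical axis, from 0) of 8 genes in each library by genotype, with points for the 3 libraries and a bar and whiskers for their mean and SD. In the upper row, Hspa5, Pdia4, Xbp1 and Herpud1 are lowest in the 3 h2 libraries, and in the lower row Atf4, Chac1 and Asns are lowest in the 3 h4 libraries while the sensor gene Eif2ak3 lies between 32 and 35.0 CPM in all 12.

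**Figure D4:**
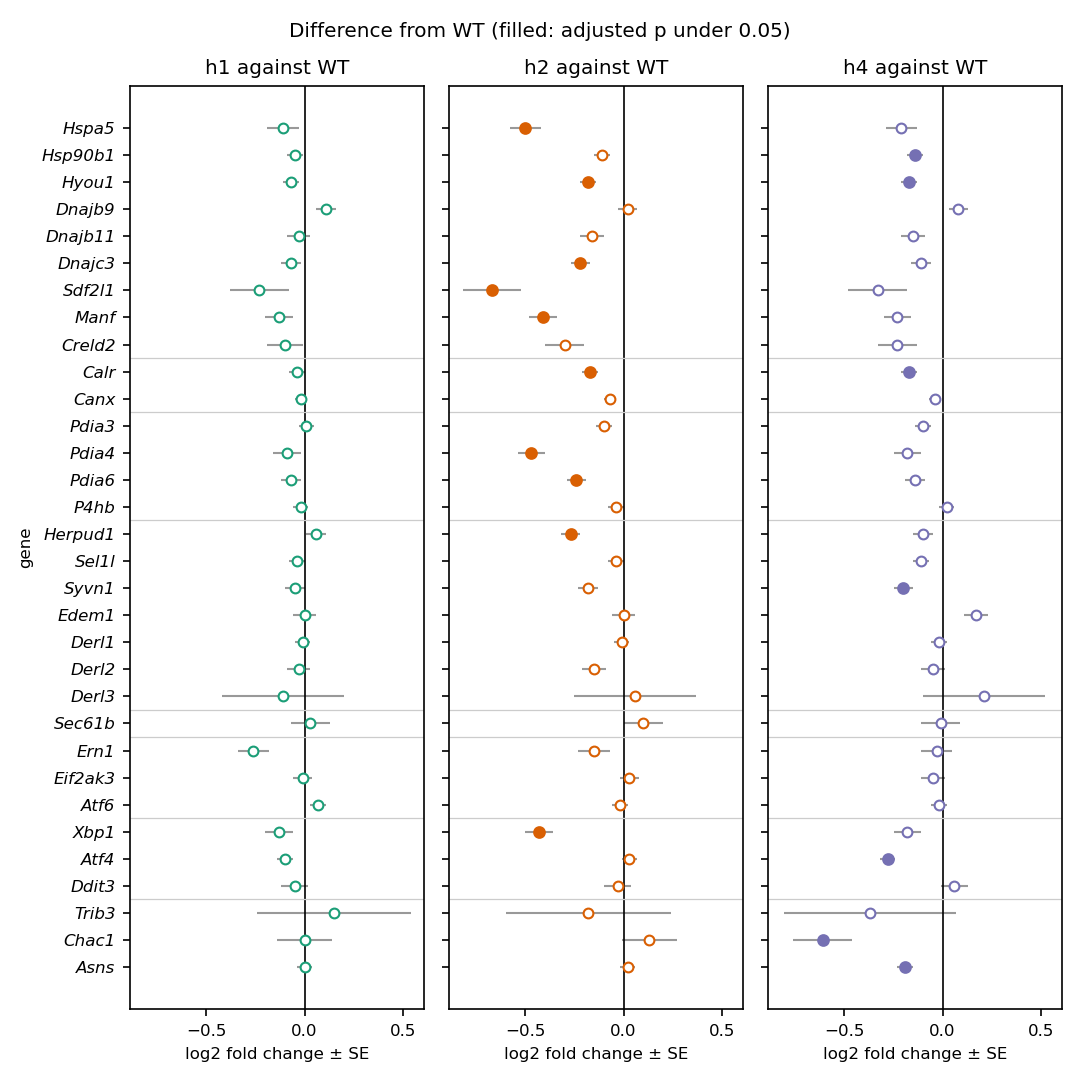
Log2 fold change and SE (horizontal axis) of the 32 genes (vertical axis, grouped by role) in each mutant against WT, from edgeR, with filled points at an adjusted p under 0.05. There are 10 filled points in h2, 7 in h4 and 0 in h1, and all lie left of 0.

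These h2 and h4 counts depended on single libraries. Without WT replicate 1, edgeR called 2 of the 32 genes in h4 and none in h2. In h2, 14 were still lower at an unadjusted p under 0.05, where 8.68% of all genes had one in either direction. Without WT replicate 2 the counts called were 1 in h2 and 3 in h4, and without WT replicate 3 they were 10 in h2 and 15 in h4. Without h2 replicate 1, 2 or 3 the h2 count was 3, 1 or 6, and without h1 replicate 2 it was 6. Without h4 replicate 1 or 3 the h4 count was 2 or 3, and it was 10 without h4 replicate 2. Calls over all genes moved as well. In h2 they were 112 with all libraries and 18, 25 or 348 without WT replicate 1, 2 or 3. In h4 they were 751, and 230, 294 or 1111 without the same libraries. Without h2 replicate 1, 2 or 3 those of h2 were 45, 27 or 111. Without h4 replicate 1, 2 or 3 those of h4 were 320, 675 or 422. Over the 12 fits that each left out 1 library, Xbp1, Pdia4, Herpud1 and Manf were called in h2 in 9, Pdia6 in 8, Dnajc3 in 7, Calr in 5, Hspa5 and Hyou1 in 4 and Sdf2l1 in 3. In h4, Atf4 was called in all 12, Chac1 in 10, Calr, Hsp90b1 and Asns in 9, and Hyou1 and Syvn1 in 8. No called gene changed sign in any of these fits or the alternatives of the closing section. Where the libraries of 2 groups do not overlap, leaving out 1 library cannot be expected to reverse a sign, so this says little about stability. In h2 the log2 fold change of Hspa5 ran from -0.59 to -0.45 over all alternatives, that of Pdia4 from -0.57 to -0.42 and that of Xbp1 from -0.50 to -0.37, with adjusted p up to 0.386, 0.238 and 0.0787. Atf4 in h4 ran from -0.30 to -0.26, with an adjusted p of at most 0.00348, and was called in each fit.

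Xist class was uneven between WT and h2. With that class as a covariate, 5 of the 10 h2 genes were called, which were Xbp1, Pdia6, Pdia4, Herpud1 and Manf, and all 7 h4 genes. Within the 7 libraries of high Xist, where h1 and h2 have 1 library each, the spread comes from WT and h4, and the lone library is assumed to vary like them. For h4 against WT, this fit keeps the 3 WT libraries and drops only h4 replicate 2, whose summed CPM of 3218 was the highest of h4. It therefore cannot separate Xist class from that library, and Xbp1 and Manf were also called in h4 when h4 replicate 2 alone was left out. The log2 fold changes in h2 were -0.54 for Hspa5, -0.48 for Pdia4, -0.43 for Manf and -0.37 for Xbp1. Of the 10 genes Xbp1 alone was called there, at an adjusted p of 0.0359, and a missed call with 1 library does not show that a gene did not differ. In the same libraries 8 of the 32 genes were called in h4, 6 of its 7 and also Xbp1 at -0.28 and Manf at -0.30, with adjusted p of 0.00951 and 0.0333. Atf4 was -0.29 and Asns -0.24, with adjusted p of 0.00139 and 0.00705, while Chac1, at -0.50, was not called (0.102).

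The mutants were also compared with each other, which tests directly whether one differs from the next. Between h2 and h1, Herpud1 and Pdia4 were lower in h2, 2 of the 32 genes, where 0.534% of all genes were called lower and 0.188% higher. Herpud1 differed by -0.33 (adjusted p = 0.00188, SE 0.05) on the log2 scale and Pdia4 by -0.38 (adjusted p = 0.0218, SE 0.07). Xbp1, Manf and Hspa5 gave -0.31, -0.28 and -0.40 in this comparison, with adjusted p of 0.0531, 0.0658 and 0.0775. All 3 were called lower in h2 by DESeq2, with adjusted p of 0.000767, 0.0446 and 0.00222, and by edgeR with only the h1 and h2 libraries, with 0.000356, 0.0168 and 1.05e-05. Between h4 and h1, 3 of the 32 genes were lower in h4, where 2.53% of all genes were called lower and 2.11% higher. They were Asns at -0.18 (adjusted p = 0.0152, SE 0.04), Chac1 at -0.61 (adjusted p = 0.0171, SE 0.15) and Atf4 at -0.18 (adjusted p = 0.0176, SE 0.04). Between h4 and h2, the same 3 genes were lower in h4 and Pdia4 was higher, where 1.68% of all genes were called lower and 1.54% higher. Atf4 differed by -0.31 (adjusted p = 0.000138, SE 0.04), Chac1 by -0.73 (adjusted p = 0.00479, SE 0.15), Asns by -0.21 (adjusted p = 0.00804, SE 0.04) and Pdia4 by 0.30 (adjusted p = 0.0428, SE 0.08). Xbp1, Herpud1 and Hspa5 were higher in each h4 library than in each h2 library, at 0.25, 0.18 and 0.29, with adjusted p of 0.0611, 0.0732 and 0.11. DESeq2 called 6 of the 32 genes here, Xbp1 (adjusted p = 0.00972) and Hspa5 (adjusted p = 0.0433) among them, and edgeR with only the 2 groups called Hspa5 (adjusted p = 0.0484). Calr and Hyou1 stood level between h4 and h2, at 0.01 and 0.01 (SE 0.04 each). These 3 comparisons share libraries with one another and with those against WT. The count between h2 and h1 was 1 to 6 over the fits that left out 1 library, that between h4 and h1 was 1 to 4 and that between h4 and h2 was 2 to 6, with 2 without h4 replicate 1. Between h2 and h1 it was 6 without WT replicate 3, 5 without h4 replicate 2 and 4 without h4 replicate 3, and it was 1 without any single h2 library, without h1 replicate 1 or 2 and without h4 replicate 1. Between h4 and h1 it was 1 without h1 replicate 1 or h4 replicate 1 or 3. Calls over all genes moved as well. They ran from 44 to 160 between h2 and h1 and from 313 to 896 between h4 and h1. Between h4 and h2 they ran from 251 to 619. Over the same fits Herpud1 was called in all 12 and Pdia4 in 6 between h2 and h1, Atf4 in 10 and Asns and Chac1 in 9 between h4 and h1, and Atf4 and Chac1 in all 12, Asns in 11 and Pdia4 in 5 between h4 and h2. Within the libraries of high Xist the counts by edgeR were 0, 0 and 1, with 9 genes at an unadjusted p under 0.05 in each of the first 2, but h1 and h2 have 1 library each there, so the spread is that of WT and h4 and these counts say nothing about stability.

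The start sites of these genes were searched for the elements through which the unfolded protein response is known to act. ATF6 binds the ER stress element (ERSE), CCAAT and CCACG with 9 bases between them, and its short form ERSE-II is ATTGG and CCACG with 1 base between them. XBP1 and ATF6 bind the element TGACGTGG (UPRE), and ATF4 binds the composite element CARE, TGATG and AA with 1 base between them. Windows of 300 bases, from 250 before to 50 after the RefSeq start on GRCm38.p6, were read on both strands, and 28 of the 32 genes had 1, Atf6, Derl1, Hyou1 and Manf being without. An exact ERSE stood in 9 of the 28 genes, or 32.1%, beside 0.137% of the 27025 genes of the table. These were Calr, Canx, Creld2, Derl3, Dnajc3, Hspa5, Pdia6 and Syvn1 with 1 each and Hsp90b1 with a pair. ERSE-II stood in Dnajb11 and Herpud1, or 7.14% beside 0.0444% of all genes, and the UPRE letters in none of the 28 beside 0.714%. CARE stood in Asns, Chac1, Herpud1 and Trib3, or 14.3% beside 4.51% of all genes. No match of 1 motif overlapped a match of another in these genes. The 32 genes were chosen as genes of ER folding and this response, so a high share of its elements was built into the choice. The shares of all genes include the 32 themselves, which give 9 of the 37 genes with ERSE.

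The stretches upstream of 7 starts are printed below, 5′ to 3′ on the strand of the gene and ending at the base before the start, for 7 genes called lower in h2 or h4, chosen after their values were seen to show the elements and 1 window without them. Capitals mark ERSE in Hspa5, Hsp90b1 and Calr, CARE and then ERSE-II in Herpud1, and CARE in Chac1 and Asns. Pdia4, with the smallest adjusted p in h2, has no exact match of the 4 motifs in its window.

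Hspa5 (GRCm38.p6, chr2:34771940-34772089, plus strand): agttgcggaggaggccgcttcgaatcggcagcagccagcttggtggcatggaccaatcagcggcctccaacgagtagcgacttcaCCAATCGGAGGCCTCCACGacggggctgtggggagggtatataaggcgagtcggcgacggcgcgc

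Hsp90b1 (GRCm38.p6, chr10:86705445-86705666, minus strand): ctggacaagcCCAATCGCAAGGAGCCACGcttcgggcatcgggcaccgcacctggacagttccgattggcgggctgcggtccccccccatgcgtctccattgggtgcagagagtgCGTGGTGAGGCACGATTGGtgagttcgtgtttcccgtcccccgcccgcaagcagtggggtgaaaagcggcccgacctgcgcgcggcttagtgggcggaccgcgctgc

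Calr (GRCm38.p6, chr8:84846932-84847103, minus strand): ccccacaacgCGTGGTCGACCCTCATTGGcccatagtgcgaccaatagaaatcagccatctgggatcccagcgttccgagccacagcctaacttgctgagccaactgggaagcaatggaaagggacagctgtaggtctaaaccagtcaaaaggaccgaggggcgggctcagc

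Herpud1 (GRCm38.p6, chr8:94386279-94386428, plus strand): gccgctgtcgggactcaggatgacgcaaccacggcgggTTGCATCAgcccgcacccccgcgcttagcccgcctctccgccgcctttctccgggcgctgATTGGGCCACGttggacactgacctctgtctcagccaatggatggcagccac

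Pdia4 (GRCm38.p6, chr6:47813513-47813662, minus strand): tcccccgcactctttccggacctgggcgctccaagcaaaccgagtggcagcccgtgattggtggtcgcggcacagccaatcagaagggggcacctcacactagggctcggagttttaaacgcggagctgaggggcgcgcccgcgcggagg

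Chac1 (GRCm38.p6, chr2:119351039-119351241, plus strand): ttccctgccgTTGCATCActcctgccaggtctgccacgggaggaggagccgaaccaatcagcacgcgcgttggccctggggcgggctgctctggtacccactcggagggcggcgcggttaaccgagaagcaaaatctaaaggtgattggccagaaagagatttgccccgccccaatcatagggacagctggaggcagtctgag

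Asns (GRCm38.p6, chr6:7693210-7693359, minus strand): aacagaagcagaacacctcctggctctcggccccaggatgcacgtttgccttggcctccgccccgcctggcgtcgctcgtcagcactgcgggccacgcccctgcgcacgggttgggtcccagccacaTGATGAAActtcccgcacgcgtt

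In Hspa5 the ERSE ran from 65 to 47 bases before the start, and in Calr, on the opposite strand, from 162 to 144. Hsp90b1 held 1 ERSE from 212 to 194 bases before its start and another, reversed, from 107 to 89. In Herpud1 the ERSE-II ran from 52 to 42 bases before the start, with a reversed CARE from 112 to 105. The CARE of Asns lay 23 to 16 bases before its start and that of Chac1, reversed, 193 to 186.

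**Figure D5:**
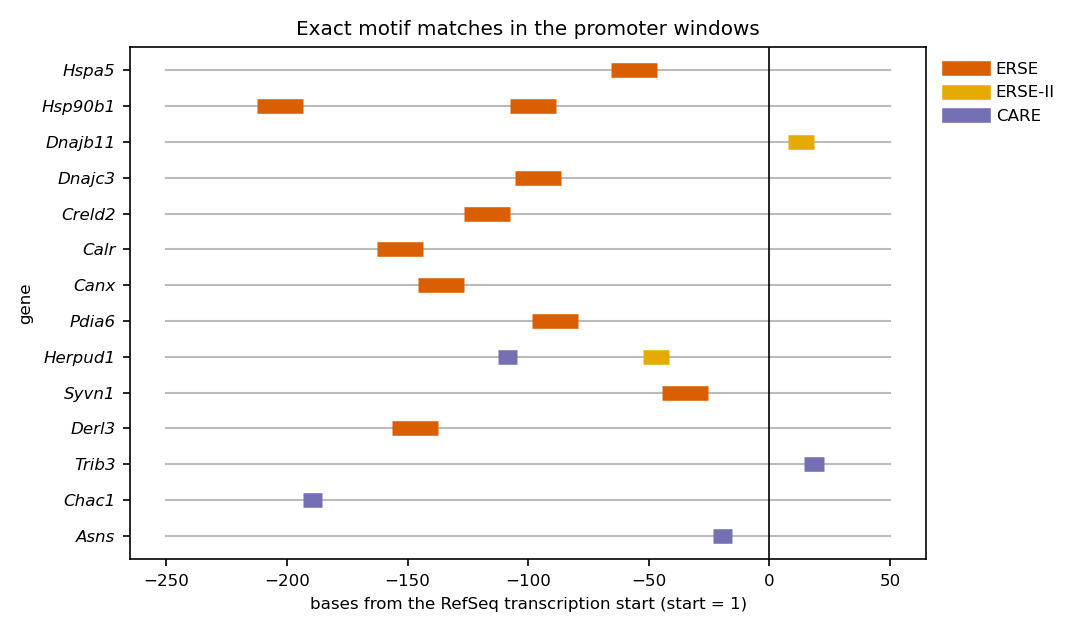
Exact matches of ERSE, ERSE-II and CARE (coloured blocks) in the windows of the 14 genes that hold one (rows), with distance from the RefSeq transcription start in bases on the horizontal axis and each window as a grey line. The matches lie upstream of the start except ERSE-II of Dnajb11, from base 8 to 18, and CARE of Trib3, from base 15 to 22.

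Set against the expression values, 5 of the 11 genes with ERSE or ERSE-II were called lower in h2, namely Calr, Dnajc3, Herpud1, Hspa5 and Pdia6, at a median log2 fold change of -0.18. Of the 17 genes with a window and neither element, 3 were called lower in h2, at a median of -0.04. They were Pdia4, Sdf2l1 and Xbp1. In h4 the counts were 3 of 11 and 3 of 17, with medians of -0.14 and -0.10. A further 17 tested genes outside the 32 held ERSE or ERSE-II, among them the ER gene Alg12 and the Golgi gene Nucb1, and none was called in any mutant by edgeR or DESeq2, with 0, 2 and 2 at an unadjusted p under 0.05 in h1, h2 and h4. Their median log2 fold change was -0.01 in h2 and 0.02 in h4. Of the 4 genes with CARE, Asns and Chac1 were lower in h4 and Herpud1 in h2, and the 342 other tested genes with CARE had a median of 0.01 in h4, with 11 lower and 5 higher, or near the 2.91% and 1.64% of all genes. Whether these elements take part in the differences was not tested.

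Outside the 32, 158 other genes of ER folding, glycosylation, translocation, degradation and stress signalling were listed, and 156 were tested. Of these, 0 were called lower and 1 higher in h1, 1 lower and 1 higher in h2, and 2 lower and 4 higher in h4, with a median log2 fold change of 0.01 in each. The shares of all genes called lower and higher were 0.206% and 0.418% (h1), 0.340% and 0.340% (h2) and 2.91% and 1.64% (h4), and these counts lie near them. At an unadjusted p under 0.05 the shares of all genes were 9.82% (h1), 11.5% (h2) and 17.6% (h4). Of 32 folding cofactors and oxidoreductases none was called in h1 or h2 by edgeR or DESeq2, with 3 at an unadjusted p under 0.05 in each, the most abundant being Selenof at 270.0 TPM and Fkbp2 at 179.8, and in h4 the prolyl isomerases Fkbp9 and Fkbp10 rose by 0.25 (SE 0.05, adjusted p = 0.00366) and 0.44 (SE 0.12, adjusted p = 0.0313). None of 21 glycosylation genes was called in any mutant against WT by edgeR or DESeq2, with 1, 3 and 4 at an unadjusted p under 0.05 in h1, h2 and h4, the most abundant being Tusc3 and Dad1 at 218 and 125 TPM. Of 26 other degradation genes, led by Vcp at 219.7 and Selenok at 174 TPM, 1 was called: Fam8a1, a partner of the Syvn1 ligase, fell in h4 from 121 to 104 CPM (log2 fold change -0.22, SE 0.04, adjusted p = 0.00216). Of 23 translocation and signal peptidase genes, Sec11c, a catalytic subunit of signal peptidase, rose in h2 by 0.21 (SE 0.05, adjusted p = 0.0423), and Srp14 of the signal recognition particle rose in h4 by 0.24 (SE 0.06, adjusted p = 0.0131), while the most abundant, Spcs1 at 183 TPM, was not called. DESeq2 called 0 of these 23 in h2 and 1 in h4. It called 1 of the folding cofactors and oxidoreductases in h4, where edgeR called 2. None of 20 further sensors, proteases and regulators was called against WT by edgeR or DESeq2, with 0, 2 and 4 at an unadjusted p under 0.05, the most abundant being Tmbim6 at 259 TPM and Creb3 at 53.0.

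The largest of these lists held 36 genes of the ATF4 and CHOP response, 34 of them tested. Against WT, edgeR called 1 higher in h1, 1 lower in h2, and 1 lower and 1 higher in h4. DESeq2 called 2 in h1, 2 in h2 and 1 in h4. At an unadjusted p under 0.05 there were 3 in h1, 6 in h2 and 15 in h4, where 11 were lower and 4 higher. The shares of all genes were 9.82%, 11.5% and 17.6%. Slc7a3, a cationic amino acid transporter, fell in h4 from 14.2 to 10.5 CPM (log2 fold change -0.43, SE 0.09, adjusted p = 0.00342). Atf3, a stress factor that is also an immediate early gene, rose there from 0.704 to 1.67 CPM (log2 fold change 1.25, SE 0.32, adjusted p = 0.0238). The list's median in h4 was -0.07, with 24 of 34 genes below 0, where 46.8% of all genes were below 0. The h4 libraries lay wholly below WT for 12 of the 34 and wholly above for 4, where 10.4% of all genes lay wholly below. Slc7a5, the large neutral amino acid transporter, fell in h2 from 70.8 to 57.1 CPM (log2 fold change -0.30, SE 0.06, adjusted p = 0.0246). Psat1, of serine synthesis, rose in h1 by 0.21 (SE 0.03, adjusted p = 0.00229). Between h4 and h1, 3 of the 34 were called lower and 2 higher in h4, where 2.53% and 2.11% of all genes were. Between h4 and h2, the stress gene Sesn2 and the glycyl-tRNA synthetase Gars were lower in h4, at -0.40 (SE 0.08, adjusted p = 0.00612) and -0.20 (SE 0.04, adjusted p = 0.00506), and the cystine transporter Slc7a11 was higher, at 0.37 (SE 0.08, adjusted p = 0.0351).

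Other gene groups moved beside the ER genes. In h4 the 10 immediate early genes, which follow neuronal activity and handling, stood at a median of 0.85 on the log2 scale. None was called by edgeR and 4 by DESeq2, and 7 had an unadjusted p under 0.05, where 17.6% of all genes had one. Their summed CPM were 356 to 423 (WT), 231 to 321 (h1), 270.1 to 505 (h2) and 506 to 653 (h4). In h4, 4 of 7 astrocyte markers were called higher, Gfap by 0.38 and Aldh1l1 by 0.28. Another 1 of the 7 went the other way, at -0.14, with each h4 library below each WT library, and was not called. Summed CPM of the 7 were 4316 to 4431 in WT and 4277 to 4451 in h4. Of 11 oligodendrocyte markers, 1 was called higher in h4, 2 in h2 and 7 in h1, with summed CPM of 11111 to 12630.0 (WT), 14415 to 14827 (h1), 12444 to 13371 (h2) and 12464 to 13264 (h4). The choroid plexus, a highly secretory tissue, had 1 of 8 markers higher in h2 and in h4, which was Kl, with summed CPM of 627 to 748 (WT), 699 to 843 (h2) and 629 to 836 (h4). DESeq2 called 1 of the 8 in h2 and 0 in h4. None of 6 microglia and 9 neuron markers was called against WT by edgeR in any mutant, while DESeq2 called 2 neuron markers in h4, where 5 neuron markers and 1 microglia marker had an unadjusted p under 0.05. The plasma cell genes Jchain, Mzb1 and Igkc were at most 0.621 CPM in any library. The part of these groups in the differences of the ER genes was not tested.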

How the data were processed

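Polyadenylated RNA of 12 whole brains was sequenced with the TruSeq RNA v2 kit, which does not mark the strand, as 100 bp paired reads, per the labels' protocols. The authors deposited RSEM gene tables, with Bowtie2 2.2.0 and RSEM 1.2.12 per the submitters' processing notes. For genome build and annotation, the sources used here give none. The deposited expected counts are estimated read pairs per gene, and 77.7% of those above 0 were whole. The deposited TPM, scaled by length and library, were used to compare levels between genes, and the deposited FPKM were not used.

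Symbols came from GENCODE M21 by Ensembl identifier, for 37607 of 38924 identifiers. Expected counts were rounded and tested with edgeR 4.0.16 (R 4.3.3; quasi-likelihood, robust, TMM factors 0.991 to 1.012, filterByExpr, 16493 genes kept and 22431 removed), with 1 mean per genotype over all 12 libraries. The 6 comparisons were each mutant against WT and each pair of mutants, and all printed adjusted p are Benjamini-Hochberg values of edgeR over all genes tested unless DESeq2 is named. CPM are expected counts over the library total times its TMM factor. SE are the log2 fold change over the square root of its F statistic. The steps were tested on simulated data. The biological coefficient of variation common to all genes was 0.0531. Replicate pairs differed by a chi-square of 2.38 to 4.47 per degree of freedom, so none was a copy.

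The genes and lists were chosen with earlier results of these data known. Library values are given for genes called in any comparison, for sensors and transcription factors and for the most abundant gene of each role. From other lists, up to 5 called genes per comparison were eligible, or the 2 of highest TPM where none was called. Genes named for their start site or as examples of another group were chosen after their values were seen. Replicates were numbered in accession order. Alternatives were DESeq2 1.42.0, RLE factors, no filter, 2 groups only, Xist class as a covariate or high-Xist libraries only (cut at 100 CPM), a replicate block and leaving out each library. RSEM gave Hsp90b1 a fractional count in 12 libraries and Derl2 in 10, so reads shared with other genes make these 2 values uncertain.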

Additional observations from a re-analysis of the deposited data

Results flagged for a closer look

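In 9 cases the difference between 2 mutants itself passed the edgeR test, so that their departures from WT differed for that gene. Between h2 and h1 these were Pdia4, at a log2 fold change of -0.38, and Herpud1, at -0.33, both lower in each h2 library than in each h1 library. Between h4 and h1 they were Atf4 at -0.18, Chac1 at -0.61 and Asns at -0.18, each lower in all 3 h4 libraries. Between h4 and h2 they were Atf4 at -0.31, Chac1 at -0.73 and Asns at -0.21, lower in all 3 h4 libraries, and Pdia4 at 0.30, higher in all 3.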

How the results depend on the processing

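The count of the 32 genes called in h2 against WT was 10, and 7 with only the 2 groups, 5 with the Xist covariate and 0 to 10 over the fits that left out 1 library. In h4 against WT it was 7, and 2 to 15 over those fits. In h2 against h1 it was 2, and 5 with DESeq2, 5 without the filter, 6 with only the 2 groups, 0 within high-Xist libraries and 1 to 6 over the leave-outs. In h4 against h1 it was 3, and 5 with DESeq2, 5 without the filter, 5 with only the 2 groups, 0 within high-Xist libraries and 1 to 4 over the leave-outs. In h4 against h2 it was 4, and 6 with DESeq2, 1 within high-Xist libraries and 2 to 6 over the leave-outs. In h1 against WT it was 0 in each fit. The cause of these shifts was not tested, except that the high-Xist and leave-out fits hold fewer libraries. Calls over all genes against WT also moved in the leave-outs. They ran from 18 to 348 in h2 and from 230 to 1111 in h4, beside 112 and 751 with all libraries. With high Xist, h1 and h2 keep 1 library each, assumed to vary like WT and h4. DESeq2 called 11 in h2 and 7 in h4 against WT, and gave no adjusted p for Chac1 in h4. Of the 26 calls over all comparisons, 0 changed sign in any alternative, which says little, since called genes were picked for a clear difference. In each leave-out 4 were kept: Atf4 in h4 against WT and against h2, Herpud1 in h2 against h1, and Chac1 in h4 against h2. Of 110 medians over the 32 genes, 2 moved by more than the spread between replicates and 0 changed sign. The h1 and h2 titles share the numbers 1 to 3, but correlations of same-numbered libraries' deviations were -0.147, -0.112 and 0.028, and not every library correlated best with its own number. With the replicate block, 6 genes were called in h2 against h1, as without it in the same 6 libraries. Depth limits Trib3 and Derl3 most, with minima of 5 and 11 expected counts.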

Other observations

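Heat shock genes, which answer unfolded protein outside the ER, were read beside the ER genes. They are mostly cytosolic, while Hspd1 and Hspe1 on the list are mitochondrial. Of 20 tested, edgeR called 3 lower in h2 and 1 in h4 against WT, where 0.340% and 2.91% of all genes were called lower, and DESeq2 called 4 in each. In h1 neither tool called any, and 5 had an unadjusted p under 0.05, where 9.82% of all genes had one. Their median log2 fold change was -0.02 in h1, -0.08 in h2 and -0.03 in h4. Hspa1b, an inducible HSP70, measured 9.16, 9.86 and 9.58 CPM (WT), 8.94, 6.52 and 5.51 (h1), 5.53, 5.36 and 6.92 (h2) and 7.68, 9.47 and 7.68 (h4). It was lower in each h2 library than in each WT library, at -0.67 in h2 (SE 0.14, edgeR adjusted p = 0.0280). Its near-identical copy Hspa1a gave -0.53 (SE 0.12, adjusted p = 0.0280), and the 2 copies can exchange estimated counts, so each value is uncertain. Chordc1, an HSP90 partner, fell in h2 by 0.20 on the log2 scale (adjusted p = 0.0480, SE 0.05) and in h4 by 0.18 (SE 0.05, adjusted p = 0.0287). Between h4 and h2, Hspa1a was higher in h4 by 0.55 (SE 0.12, adjusted p = 0.00985) and Dnajb4, an HSP40, by 0.18 (SE 0.04, adjusted p = 0.0251). Hspa8, the constitutive HSP70 and the most abundant of the list at 2016 TPM, was not called in h2 or h4.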
